A study of Mus musculus with 4 samples.

Results

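The 8 genes described here carry out or start programmed cell death, and they were followed in the postnatal mouse retina after inhibition of miR-124-3p, a microRNA abundant in retinal neurons. They were Casp8 and Bax of apoptosis, Ripk1, Ripk3 and Mlkl of necroptosis, and Casp1, Casp4 and Gsdmd of pyroptosis, found by their symbols among the 48897 genes listed, and all 8 were present. The libraries came from whole retinas of C57BL/6 wild type mice (C57BL/6J in the study's methods) at postnatal day 9. In the anti-miR-124 group, the left eye had received at postnatal day 3 an intravitreal injection of 1 μl holding 0.6 nmol of a miR-124-3p antagomir, a modified oligonucleotide that binds the mature microRNA. In the NC group (negative control), the right eye had received a scrambled sequence at the same volume and concentration, so that both groups carried the injection itself. Each group had 2 libraries of RNA pooled from several retinas of different litters, and the study's methods state how many mixed retinas stood for a group, not for each library. A left-eye and a right-eye library that share a number in the table form a pair, and the 4 libraries are called NC-A and anti-A (pair A) and NC-B and anti-B (pair B). Libraries of pooled retinas may share animals, so p-values measure only the spread between these libraries.

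Apoptosis is run by caspases, proteases that are switched on either by death receptors, which recruit caspase-8, or by mitochondria, whose outer membrane is opened by BAX so that cytochrome c leaves. Necroptosis starts when RIPK1 and RIPK3 bind each other and RIPK3 phosphorylates MLKL, which breaches the plasma membrane, while active caspase-8 holds this route in check. In pyroptosis, caspase-1 is activated by inflammasomes and caspase-4 by bacterial lipopolysaccharide inside the cell, and both cut gasdermin D, whose amino-terminal part forms pores. In the developing retina, surplus neurons die by apoptosis, and the genes of pyroptosis are better known from microglia, the resident macrophages, and from other myeloid cells.

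Reads were counted per gene, so overlapping genes bear on the values. Positions are given as in the deposited table and overlapped the GRCm38 annotation. Casp1 lies on the plus strand at chr9:5298517-5307281, and Casp4 follows it on the same strand at chr9:5308825-5336791, with 1543 bases between the pair. Casp8 lies on the plus strand at chr1:58795228-58847503, Ripk1 on the plus strand at chr13:34002363-34035170 and Gsdmd on the plus strand at chr15:75862143-75867408. On the minus strand lie Ripk3 at chr14:55784995-55788857, Mlkl at chr8:111311681-111338456 and Bax at chr7:45461695-45468205. The start of Ripk1 overlaps the start of Serpinb6a, which is read from the other strand and had between 189 and 297 counts per library. Whether the counting used strand was not given in the sources used here. The other overlapping entries, an uncharacterised transcript within Casp8 and a noncoding RNA across Ripk3, had at most 2 counts in any library.

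A pair of short motifs that interferon-activated factors are known to bind was looked for in the promoters, taken from RefSeq on GRCm38.p6 as 250 bases before to 50 bases after each start. These were the core of the interferon-stimulated response element (GAAA, any 2 bases, GAAA) and the gamma-activated site (TTC, any 3 bases, GAA), both on either strand. Among 32851 promoters of all genes, 3.44% held the former and 8.3% the latter. Promoters were given for 7 of the 8 genes, 9 promoters in all, with Gsdmd the one without. Matches were present in a single one of them, the second promoter of Ripk1, which held gamma-activated site letters at 108 and 11 bases before the start and response element letters that began 5 bases before it and overlapped the nearer site. The 120 bases before the start are shown for this promoter (with 10 bases after it), and for those of Casp1 and Casp4, the neighbours with the largest ratios in pair B, in the order chr13:34002754-34002883, chr9:5298397-5298516 and chr9:5308729-5308848, all on the plus strand, with matched letters in capitals.
Ripk1: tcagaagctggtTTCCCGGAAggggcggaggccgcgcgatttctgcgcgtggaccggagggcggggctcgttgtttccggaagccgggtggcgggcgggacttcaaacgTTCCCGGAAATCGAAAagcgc
Casp1: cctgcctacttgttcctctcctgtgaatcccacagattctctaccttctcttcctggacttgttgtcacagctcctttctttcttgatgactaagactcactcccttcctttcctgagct
Casp4: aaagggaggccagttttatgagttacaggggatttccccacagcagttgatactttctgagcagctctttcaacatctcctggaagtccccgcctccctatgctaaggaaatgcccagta
A match is a description of letters and shows no binding, and the absence of a match says only that these letters were not in the window.

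The libraries held between 16317239 and 18726963 counts. Markers of the labelled tissue were abundant, as the summed level of 10 rod photoreceptor genes lay between 9124 and 10635 TPM (a level per length that adds up to the same total in every library) in the 4 libraries. Groups were compared with edgeR's quasi-likelihood test on TMM-normalized counts, and its filter on low counts left 17766 genes. With 2 libraries per group, 0% of these genes had an adjusted p under 0.05 (Benjamini-Hochberg), and 3.91% had an unadjusted p under 0.05, with 396 on the higher side and 298 on the lower side in the anti-miR-124 group. DESeq2 called 33 genes and limma-voom none at the adjusted threshold. Without the filter, edgeR's test also gave very small p-values to genes that were high in a single library. Lyz2, with 140 counts in NC-B and 2646 in anti-B, had an SE of 1.12 with the filter and 0.11 without. Its adjusted p in edgeR's test was 0.989 with the filter and 4.7e-138 without. For such genes, p-values without the filter did not carry the spread between libraries. In NC-A, 24 lens genes summed to 67284 TPM against 179 to 241 TPM elsewhere. In anti-B, the summed levels of microglia, monocyte and reactive glia markers were high, though not of every marker. Their values are given beside the genes they moved with.

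The levels of the 8 genes spanned more than 2 orders of magnitude per length. Bax was the most abundant, with a mean of 49.8 TPM over the 4 libraries (45.3 to 53.3). Ripk1 followed with 7.48 TPM (6.33 to 9.43) and Casp8 with 2.43 TPM (2.21 to 2.85), and the ranges of these 3 genes did not meet. Gsdmd had a mean of 2.28 TPM (1.05 to 4.28), Casp1 of 1.00 TPM (0.253 to 3.02), Ripk3 of 0.810 TPM (0.292 to 1.43), Mlkl of 0.768 TPM (0.514 to 1.19) and Casp4 of 0.246 TPM (0.125 to 0.600). From Casp8 downwards, each gene overlapped its neighbour in this order, so adjacent ranks are not set apart, although Casp8 lay wholly above Ripk3, Mlkl and Casp4, and Gsdmd above Casp4. Among other caspases, Casp9, the initiator of the mitochondrial route, had a mean of 34.8 TPM, while Casp14, known from skin, had no count in any library, which allows up to 3 counts in each. Both are named here after their values were seen.

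**Figure D1:**
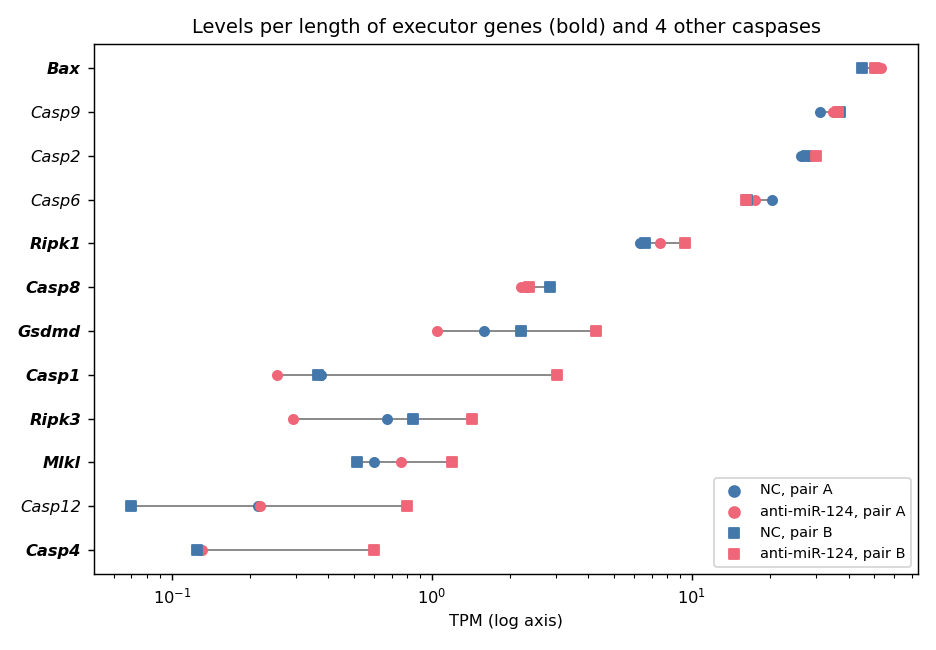
Level per length (TPM, log axis) of the 8 genes, in bold, and of 4 other caspases, with 1 symbol per library, circles for pair A and squares for pair B, blue for NC and red for the anti-miR-124 group. Bax lies between 45.3 and 53.3 TPM in all libraries, while Casp1 reaches 3.02 TPM in 1 library and at most 0.374 TPM in the others.

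No one of the 8 genes passed the adjusted threshold, and 5 of them, Casp8, Ripk1, Mlkl, Gsdmd and Bax, had enough counts to be tested. Their unadjusted p-values in edgeR's test were at least 0.0684, their adjusted p-values were 0.989 each, and none was called by DESeq2 or limma-voom. Mlkl passed the filter only through its 2 anti-miR-124 libraries, so counts over the tested genes lean towards that group and support nothing. The direction was shared by both pairs for few of them. Ripk1 and Mlkl were higher in the left-eye library of both pairs, 2 of the 5 tested genes beside 22.8% of all tested genes, and Casp8 was lower in both pairs, 1 of 5 beside 24%. The same 2 genes were higher without overlap between the groups, beside 16.5% of all tested genes, and Casp8 was lower without overlap, beside 16.8%. Anti-B was the highest of the 4 libraries for 6 of the 8 genes, all but Casp8 and Bax, and for 3 of the 5 tested, beside 30.6% of all tested genes.

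**Figure D2:**
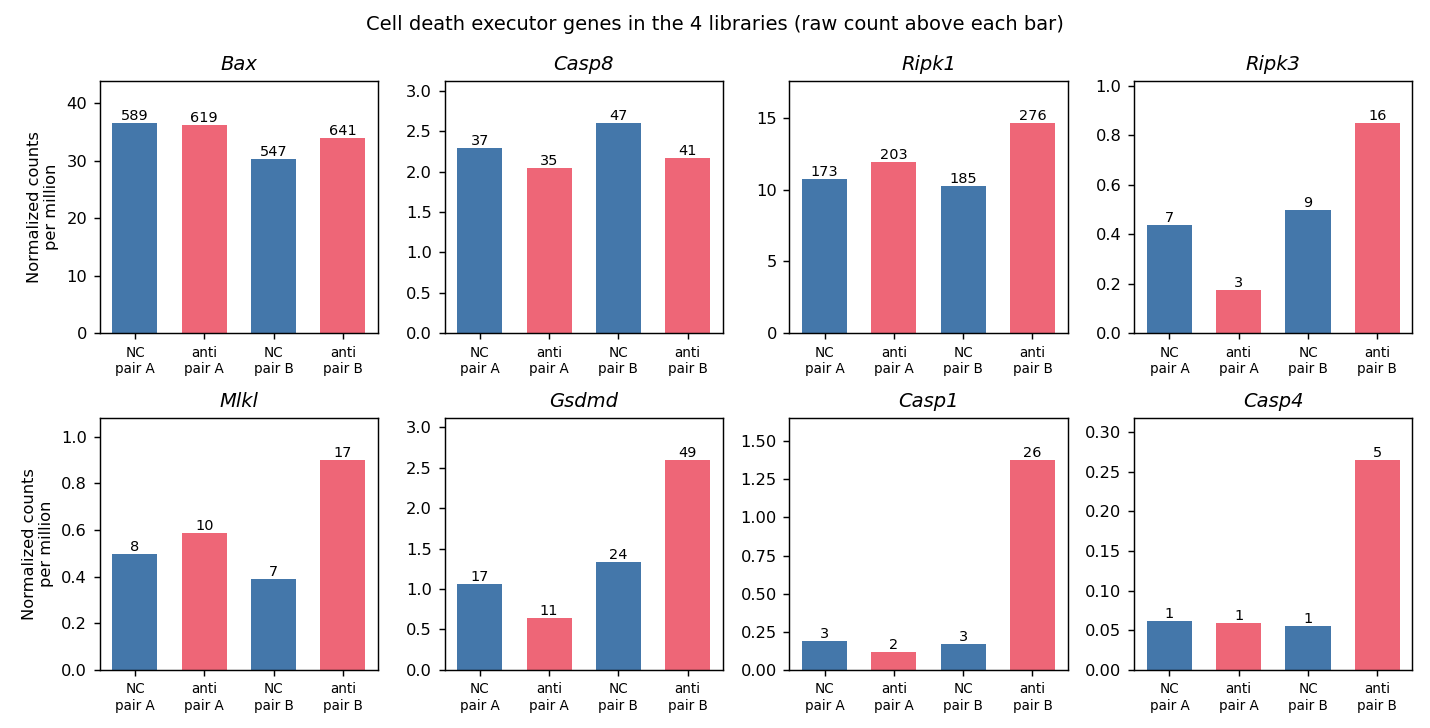
Normalized CPM of each of the 8 genes in the 4 libraries, with the raw count above each bar, blue for NC and red for the anti-miR-124 group (anti), and axes that start at 0. The last bar, anti-B, is the tallest for Ripk1, Ripk3, Mlkl, Gsdmd, Casp1 and Casp4.

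Of the apoptosis genes, Bax, which opens the mitochondrial outer membrane, had 589 counts in NC-A, 619 in anti-A, 547 in NC-B and 641 in anti-B. As normalized CPM (counts scaled to the size of the library), these were 36.6, 36.3, 30.3 and 34.0. The values of both groups overlapped, and the NC libraries of the pairs lay further apart than the libraries within pair A. The ratio of anti-miR-124 to NC was 0.991 in pair A (95% counting interval 0.884 to 1.11) and 1.12 in pair B (1.00 to 1.26). Such an interval is exact, compares 2 libraries rather than the conditions, and covers counting error only. The log2 fold change in edgeR's test was 0.072 (SE 0.11, adjusted p = 0.989), and it was -0.059 when NC-B was left out.

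Casp8, the initiator caspase of death receptors, was counted 37 times in NC-A, 35 times in anti-A, 47 times in NC-B and 41 times in anti-B. The normalized levels were 2.30 CPM in NC-A and 2.60 CPM in NC-B against 2.05 CPM in anti-A and 2.18 CPM in anti-B. Both anti-miR-124 libraries lay below both NC libraries, by less than the counting error of either pair. The ratio was 0.892 in pair A (0.546 to 1.46) and 0.836 in pair B (0.536 to 1.30), and the log2 fold change was -0.21 (SE 0.28, adjusted p = 0.989 in edgeR's test). Of the 8 genes, Casp8 was the only one with a lower level in anti-B than in NC-B.

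The other caspases showed no common direction. Of 7 listed, 5 were tested, of which 1 was higher and 2 were lower in both pairs, and their median log2 fold change was -0.071 beside 0.00066 over all tested genes. Casp2, which responds to genotoxic stress, had a log2 fold change of 0.060 (SE 0.078), and Casp6, an executioner, of -0.18 (SE 0.21). Casp12, a relative of Casp1 and Casp4 that was too low to be tested, had 3 counts in NC-A and in anti-A, 1 in NC-B and 12 in anti-B. It is named here after its values were seen.

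Bax belongs to the BCL-2 family, in which pore formers, their inhibitors and the BH3-only proteins oppose each other. Of 16 other members of the family, 13 were tested, 4 were higher and 2 lower in both pairs, and the median log2 fold change was 0.046. Genes of BH3-only proteins had the smallest p-values of those that moved alike in both pairs. Bmf had a log2 fold change of 0.27 (SE 0.11), with 563 counts in NC-A and 651 in anti-A, 628 in NC-B and 870 in anti-B. Bcl2l11, which encodes BIM, had 0.19 (SE 0.083), and Bbc3, which encodes PUMA, had 0.28 (SE 0.14). Their unadjusted p-values were 0.040, 0.055 and 0.098, and all had an adjusted p of 0.989 in edgeR's test. The 2 genes lower in both pairs also encode BH3-only proteins, so this class had no common direction. They were Hrk, with a log2 fold change of -0.23 (SE 0.19), and Bid, with -0.15 (SE 0.16). Both are named here after their values were seen.

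Further along the mitochondrial route, all 10 genes of the apoptosome and of the inhibitor of apoptosis proteins were tested, with 2 higher and 2 lower in both pairs and 0.019 as the median log2 fold change. Apaf1, the scaffold on which cytochrome c assembles caspase-9, had 793 counts in NC-A and 767 in anti-A, 956 in NC-B and 805 in anti-B, a log2 fold change of -0.22 (SE 0.080, unadjusted p = 0.030). Birc3, an inhibitor of apoptosis protein that also ubiquitinates RIPK1, had 11 counts in NC-A and 18 in anti-A, 4 in NC-B and 27 in anti-B, a log2 fold change of 1.48 (SE 0.56, unadjusted p = 0.036). Endog, a mitochondrial nuclease, had a log2 fold change of 0.28 (SE 0.16). The adjusted p was 0.989 for all 3 genes in edgeR's test.

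Upstream of Casp8 and Ripk1, 6 of 7 death receptors and ligands were in the table and 4 were tested. Of these, 2 were higher and 0 were lower in both pairs, beside 22.8% and 24% of all tested genes. The higher genes were Tnfrsf21, a death receptor that neurons carry, with a log2 fold change of 0.25 (SE 0.11), and Tnfsf10, the ligand TRAIL, with 0.23 (SE 0.34). Of the 13 adaptors and ubiquitin enzymes that decide what RIPK1 does at the receptor, all were tested, 3 were higher and 2 lower in both pairs, and the median log2 fold change was 0.047. Rnf31, the catalytic part of the linear ubiquitin chain assembly complex, had 447 counts in NC-A and 560 in anti-A, 492 in NC-B and 601 in anti-B, a log2 fold change of 0.23 (SE 0.079, unadjusted p = 0.023, adjusted p = 0.989 in edgeR's test). Rbck1, a partner in the same complex, had 0.13 (SE 0.085), and Map3k7, the kinase TAK1, had -0.093 (SE 0.072).

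In the necroptosis group, Ripk1 had the most counts. Its counts were 173 in NC-A, 203 in anti-A, 185 in NC-B and 276 in anti-B. The normalized levels were 10.7 and 10.2 CPM in NC-A and NC-B and 11.9 and 14.6 CPM in anti-A and anti-B, with group means of 10.5 ± 0.351 CPM and 13.3 ± 1.95 CPM (SD, n = 2). The groups did not overlap, the NC libraries lay close together, and anti-B stood above the rest. The ratio was 1.11 in pair A (0.899 to 1.36) and 1.43 in pair B (1.18 to 1.73), so that the counting interval lay above 1 in pair B and included 1 in pair A.

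The log2 fold change of Ripk1 was 0.34 (SE 0.16, unadjusted p = 0.0684, adjusted p = 0.989 in edgeR's test). It was 0.18 when anti-B was left out. Ripk1 is among the genes that the study itself picked on these libraries, so its direction here is not independent of that choice. The overlapping Serpinb6a had 215 counts in NC-A, 189 in anti-A, 216 in NC-B and 297 in anti-B. It was thus also highest in anti-B but, unlike Ripk1, had fewer counts in anti-A than in NC-A.

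Ripk3, the kinase that turns MLKL on, was low, with 7 counts in NC-A, 3 in anti-A, 9 in NC-B and 16 in anti-B. The anti-miR-124 libraries were the lowest and the highest of the 4, and the NC libraries lay between them. The ratio was 0.404 in pair A (0.0675 to 1.77) and 1.70 in pair B (0.709 to 4.37), and neither could be told from 1 at this depth. Ripk3 did not pass the filter, and without it the log2 fold change was 0.16 (SE 0.63, adjusted p = 0.988 in edgeR's test).

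Mlkl, the membrane executioner, had 8 counts in NC-A, 10 in anti-A, 7 in NC-B and 17 in anti-B. These were 0.497 and 0.388 CPM after normalization in NC-A and NC-B and 0.586 and 0.902 CPM in anti-A and anti-B. The groups did not overlap, although in pair A they were 2 counts apart. The ratio was 1.18 in pair A (0.419 to 3.44) and 2.33 in pair B (0.917 to 6.64), both with intervals that included 1. The log2 fold change was 0.76 (SE 0.49, unadjusted p = 0.167, adjusted p = 0.989 in edgeR's test), and 0.41 when anti-B was left out.

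**Figure D3:**
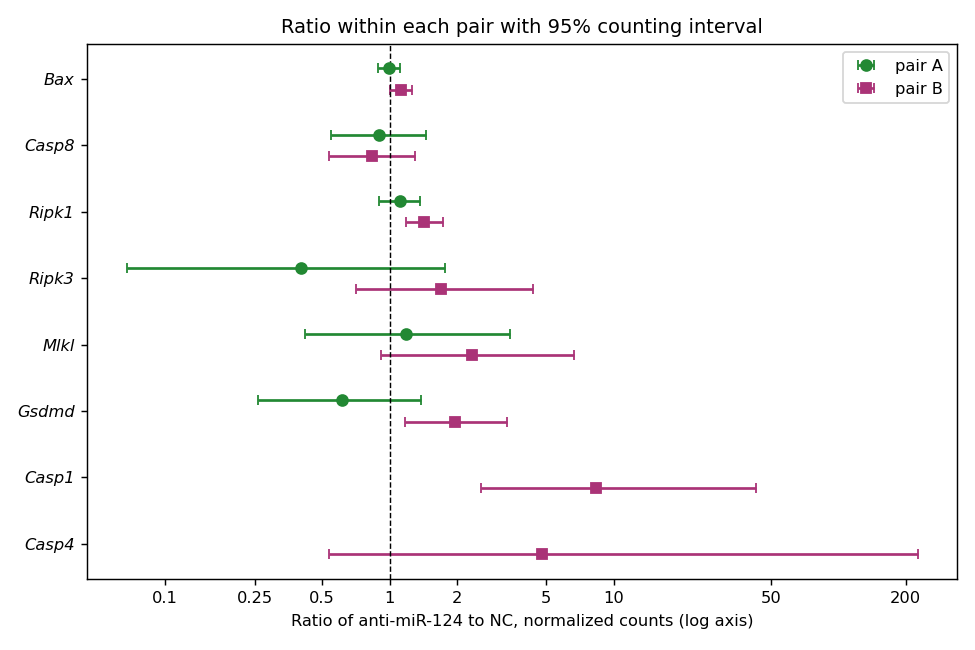
Ratio of the anti-miR-124 to the NC library (normalized counts, log axis) of each gene in pair A (circles) and pair B (squares), with exact 95% counting intervals, and a dashed line at 1. The intervals of Ripk1, Gsdmd and Casp1 in pair B lie above 1, the others shown include it, and no ratio is drawn for Casp1 and Casp4 in pair A, where both libraries had at most 3 counts.

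Of 8 listed genes that feed the necroptosis kinases, 7 were tested. Of these, 4 were higher and 0 were lower in both pairs, beside 22.8% and 24% of all tested genes. Their median log2 fold change was 0.29 beside 0.00066 over all tested genes. Eif2ak2, the interferon-induced kinase PKR that senses double-stranded RNA, led them with 141 counts in NC-A and 262 in anti-A, 124 in NC-B and 497 in anti-B. The groups were well apart, with ratios of 1.75 in pair A (1.42 to 2.17) and 3.84 in pair B (3.15 to 4.71), and a log2 fold change of 1.42 (SE 0.27, unadjusted p = 0.0016, adjusted p = 0.957 in edgeR's test).

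Eif2ak2 passed the threshold in DESeq2's Wald test (log2 fold change 1.42, adjusted p = 0.00060). In edgeR's test, it passed without the filter (adjusted p = 1.0e-15) and when anti-A was left out (log2 fold change 1.76, adjusted p = 0.00092). It did not pass when NC-A, NC-B or anti-B was left out, in limma-voom or with the replicate block. It too is among the genes the study picked on these libraries. The fit without the filter also gave very small p-values to genes high in a single library, so its p-value here is not read as the spread between libraries.

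Tlr4, the receptor for lipopolysaccharide, had 31 counts in NC-A and 35 in anti-A, 23 in NC-B and 67 in anti-B, a log2 fold change of 0.82 (SE 0.39, adjusted p = 0.989 in edgeR's test). Ticam1, the adaptor TRIF that binds RIPK1 and RIPK3 below the Toll-like receptors, had 0.30 (SE 0.18). Zbp1, the interferon-induced sensor that binds RIPK3, was too low to be tested, with 3 counts in NC-A and 9 in anti-A, 0 in NC-B and 17 in anti-B. It is named here after its values were seen, and without the filter its log2 fold change was 2.93 (SE 0.84, adjusted p = 0.041 in edgeR's test). That fit also gave small p-values to genes high in a single library. Ripk3 and Mlkl themselves did not pass the threshold without the filter.

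Of the pyroptosis genes, Casp1, the inflammasome protease that matures interleukin-1β, showed the largest difference in 1 pair. It had 3 counts in NC-A, 2 in anti-A, 3 in NC-B and 26 in anti-B. Anti-B thus held most of its reads, and the other 3 libraries lay at or under the floor of 3 counts. The ratio in pair B was 8.30 (2.54 to 42.9), and none was formed in pair A. Casp1 did not pass the filter, and without it the log2 fold change was 2.08 (SE 0.71, adjusted p = 0.208 in edgeR's test).

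Casp4, the sensor of lipopolysaccharide inside the cell and neighbour of Casp1, had 1 count each in NC-A, anti-A and NC-B and 5 counts in anti-B. With so few reads, a difference could not be detected at this depth, and the ratio of 4.79 in pair B had an interval from 0.536 to 227. Without the filter its log2 fold change was 1.40 (SE 1.58, adjusted p = 0.955 in edgeR's test).

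Gsdmd, the pore former cut by both caspases, had 17 counts in NC-A, 11 in anti-A, 24 in NC-B and 49 in anti-B. The anti-miR-124 libraries were again the lowest and the highest of the 4, at 0.644 and 2.60 CPM, around 1.06 and 1.33 CPM in the NC libraries. The ratio was 0.610 in pair A (0.258 to 1.38) and 1.96 in pair B (1.18 to 3.33). The log2 fold change of 0.45 (SE 0.63, adjusted p = 0.989 in edgeR's test) therefore joined opposite directions. It was -0.89 when anti-B was left out and 1.11 (adjusted p = 0.387 in edgeR's test) when anti-A was left out.

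Among the inflammasome sensors and their adaptor, the pairs differed for some genes. Of 11 listed, 6 were tested, and 3 were higher and 0 lower in both pairs, beside 22.8% and 24% of all tested genes. The median log2 ratio was -0.27 in pair A and 1.11 in pair B. Pycard, the adaptor ASC that links sensors to Casp1, was higher in both, with 16 counts in NC-A and 27 in anti-A, 21 in NC-B and 43 in anti-B, a log2 fold change of 0.84 (SE 0.36, unadjusted p = 0.055, adjusted p = 0.989 in edgeR's test). Aim2, the sensor of cytosolic DNA, had 0.48 (SE 0.28), and Nek7, a kinase that NLRP3 needs, had 0.056 (SE 0.068). Nlrp3 itself was too low to be tested, with 0 counts in NC-A and 6 in anti-A, 2 in NC-B and 13 in anti-B, and is named here after its values were seen.

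Of 8 products and pores of pyroptosis, 4 were tested and 1, the cytokine gene Il18, was higher in both pairs, with a log2 fold change of 0.19 (SE 0.30). Il1b, the classic substrate of caspase-1, had 0 counts in NC-A and 4 in anti-A, 2 in NC-B and 1 in anti-B. It is named here after its values were seen.

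The guanylate-binding proteins, interferon-induced GTPases that expose bacterial lipopolysaccharide to caspase-4, were the cell death list with the largest median difference. The 4 of 5 listed genes that were in the table were all tested and all higher in both pairs, with 2.86 as the median log2 fold change and a median log2 ratio of 2.38 in pair A and 3.03 in pair B. Gbp2 and Gbp5 passed the filter only through the anti-miR-124 libraries, so the count and the median lean towards that group and support nothing. Gbp3 had 10 counts in NC-A and 82 in anti-A, 14 in NC-B and 184 in anti-B, a log2 fold change of 3.37 (SE 0.44, adjusted p = 0.487 in edgeR's test). Gbp2 had 3.08 (SE 0.57), and Gbp7 had 1.70 (SE 0.33), both with an adjusted p of 0.957. In DESeq2's Wald test Gbp3 (adjusted p = 6.5e-07), Gbp7 (0.0065) and Gbp2 (0.040) passed the threshold, and all 4 genes did so in edgeR's test without the filter. When anti-A was left out, Gbp3 (adjusted p = 0.00044), Gbp7 (0.0019) and Gbp2 (0.0043) also passed in edgeR's test, and none of the 4 genes did so when NC-A, NC-B or anti-B was left out.

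**Figure D4:**
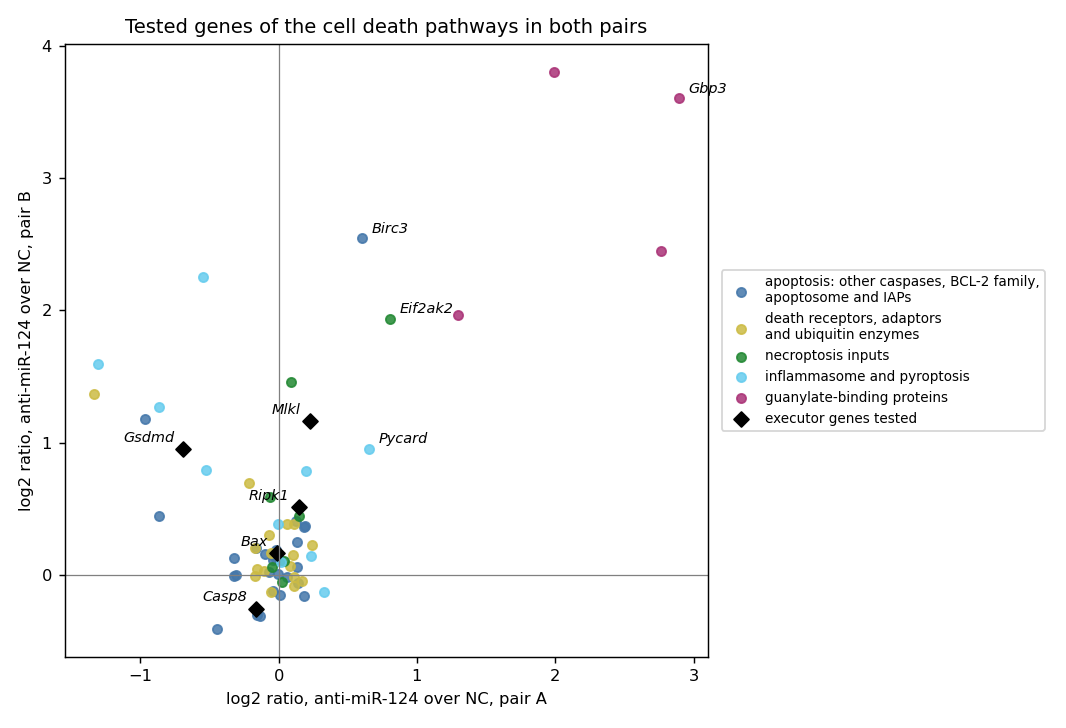
Log2 ratio of anti-miR-124 to NC in pair A (horizontal) and pair B (vertical) for the tested genes of the cell death lists, coloured by list, with the 5 tested executor genes as black diamonds. The guanylate-binding proteins lie high in both pairs (Gbp3 at 2.90 and 3.61), while Gsdmd lies at -0.69 on the horizontal and 0.95 on the vertical axis.

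The 6 genes that peaked in anti-B did so beside markers of myeloid cells. The 20 microglia and macrophage genes summed to 309 TPM in NC-A and 251 TPM in NC-B, and to 300.1 TPM in anti-A and 800.4 TPM in anti-B, with 17 of the 20 highest in anti-B. Over all tested genes, the share highest in anti-B was 30.6%. Among the 20, Ctss, a lysosomal protease of macrophages, had 253 to 295 counts in 3 libraries and 1115 in anti-B. The markers P2ry12, P2ry13 and Siglech were not highest in anti-B. P2ry12 had 77 counts in NC-A, 89 in anti-A, 72 in NC-B and 84 in anti-B. P2ry13 had 34 in NC-A, 34 in anti-A, 24 in NC-B and 34 in anti-B. Siglech had 18 in NC-A, 29 in anti-A, 18 in NC-B and 27 in anti-B. These markers are named here after their values were seen. The 10 monocyte and neutrophil genes summed to 42.8 TPM in NC-A, 27.3 TPM in NC-B, 27.5 TPM in anti-A and 445 TPM in anti-B, which was mostly Lyz2, the lysozyme of myeloid cells, with 136 to 226 counts in 3 libraries and 2646 in anti-B. Of the defining markers, Ly6c2 and Ly6g had no count in any library, while Ccr2, a chemokine receptor of monocytes, had 0 counts in NC-A and in anti-A, 2 in NC-B and 25 in anti-B. Mmp8, with 6 counts, and Cxcr2, with 4, were counted only in anti-B. Of the 10 genes of this list, 6 were highest in anti-B, and others were not. S100a9 had 3 counts in NC-A, 5 in anti-A, 3 in NC-B and 1 in anti-B. Plac8 had 3 counts in NC-A, 2 in anti-A, 3 in NC-B and 2 in anti-B. Csf3r differed little, with 25 counts in NC-A, 27 in anti-A, 21 in NC-B and 31 in anti-B. Plac8 and Csf3r are named here after their values were seen. In such bulk RNA, more cells of a type and more RNA per cell cannot be told apart. The part of these markers in the values of Casp1, Casp4, Gsdmd, Ripk1, Ripk3 and Mlkl was not tested.

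Reactive glia and interferon-stimulated genes were highest in anti-B as well. The 12 genes of reactive gliosis summed to 230 TPM in NC-A, 175 TPM in NC-B, 172 TPM in anti-A and 461 TPM in anti-B, where all 12 were highest. The 30 interferon-stimulated genes summed to 102 TPM in NC-A, 119 TPM in NC-B, 258 TPM in anti-A and 451 TPM in anti-B. Their sum was thus higher in the left eye of both pairs, and 28 of the 30 were highest in anti-B. Over all tested genes, the share highest in anti-B was 30.6%, and both lists were chosen with earlier results of these data known. Sums of the 10 endothelial genes lay between 289 and 325 TPM, those of 10 Muller glia genes between 1914 and 2308 TPM, and those of 10 pigment epithelium genes between 422 and 473 TPM. The 10 lymphocyte genes summed to between 5.07 and 8.10 TPM, with Cd3e, Cd3d, Ms4a1 and Ncr1 without a count. The 5 red blood cell genes summed to 404 TPM in NC-A, 745 TPM in NC-B, 1592 TPM in anti-A and 455 TPM in anti-B. Of the 8 genes, only Bax had its highest TPM in anti-A, but its normalized CPM was highest in NC-A (36.6 against 36.3 in anti-A).

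**Figure D5:**
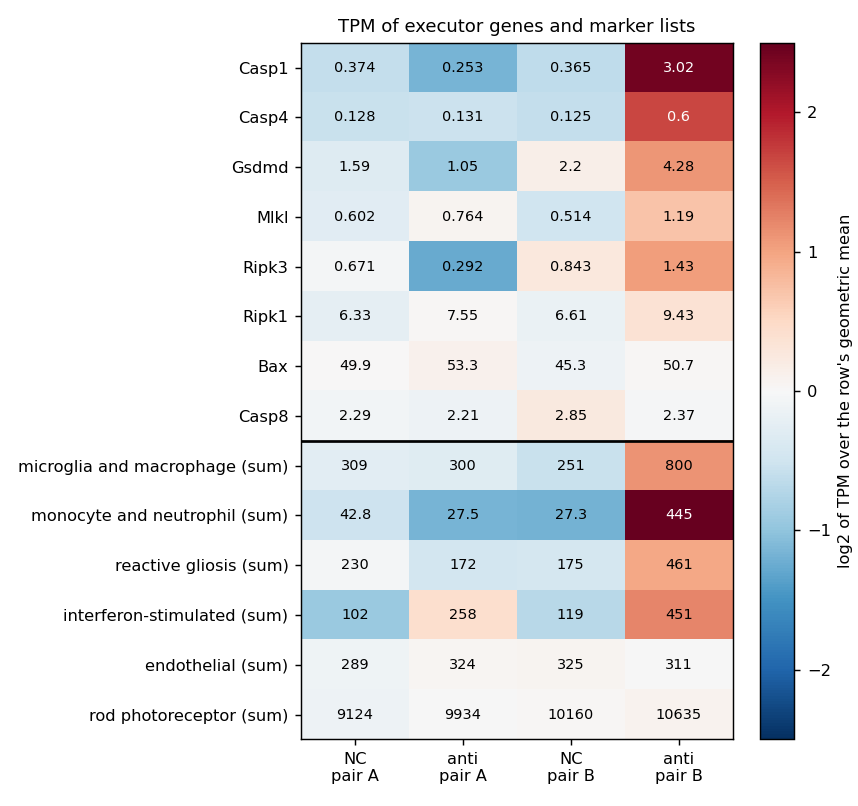
TPM of the 8 genes (upper rows) and summed TPM of marker lists (lower rows) in the 4 libraries (anti, the anti-miR-124 group), with the number in each cell and its colour showing the log2 of that value over the geometric mean of the row. In the last column, anti-B, Casp1 (3.02 TPM) is high together with the microglia and macrophage sum (800.4 TPM) and the monocyte and neutrophil sum (445 TPM).

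For the 5 genes whose normalized level ranged over more than 1 log2 unit, the tested genes with the most alike profile over the 4 libraries were found by the Euclidean distance between centred log2 levels. Nearest to Casp1 was Ctsk (distance 0.294), a lysosomal protease, with 13 counts in NC-A, 10 in anti-A, 15 in NC-B and 89 in anti-B, followed by Slc37a2 (0.358) and Tlr13 (0.391), an endosomal receptor for bacterial RNA. Nearest to Casp4 were Rnase4 (0.0589), Mamdc2 (0.104) and Fcgr1 (0.111), a receptor for immunoglobulin G on macrophages. Vav1 (0.0471), a signalling protein of blood cells, was nearest to Gsdmd, with 24 counts in NC-A, 16 in anti-A, 35 in NC-B and 72 in anti-B, before Gm38501 (0.168) and Eps8l2 (0.174). Scarf2 (0.0569) and Nr1h4 (0.0945) were nearest to Mlkl. Crocc2 (0.260) and Cnpy1 (0.324) were near Ripk3, beside an entry without a symbol. With 4 libraries and few counts for these genes, such likeness is a description, and for Casp1 and Casp4 it rests on anti-B alone.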

How the data were processed

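RNA from mouse retina was sequenced from directional libraries, and per the labels the reads were aligned with HISAT2 to mm9. The counting tool was not given in the sources used here. The deposited values are counts of reads per gene, without normalization. For 99.8% of 36837 matched symbols the positions in the table overlapped GRCm38 genes, and they are given on that build. The 4 RPKM columns in the same table, computed by the authors from counts and gene lengths, were not used.

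Columns were assigned to groups by the eye they name and to pairs by their shared number, which does not tell the replicate number in the labels. TPM was computed from counts and lengths. The main test was edgeR 4.0.16 (R 4.3.3) with TMM normalization, filterByExpr, the quasi-likelihood test without a covariate, two-sided, and Benjamini-Hochberg adjustment over 17766 genes at 0.05. An exact permutation of 2 against 2 libraries cannot go below 0.333, so none was used. Ratios within a pair used TMM-normalized counts, with exact 95% intervals, and log2 ratios a prior count of 0.5. No fold was formed where both libraries had at most 3 counts. On simulated counts for 2 against 2 libraries, edgeR called 58.8% of 97 genes changed 2-fold and 91.8% of 98 changed 4-fold, with 4 wrong calls over 17795 genes. These shares do not give the power on the real libraries. There, no gene passed, and Gbp3 with a log2 fold change of 3.37 had an adjusted p of 0.487 in edgeR's test, the smallest of all. Libraries were no duplicates (chi-square per degree of freedom 3.66 to 31.2). The smallest value was between anti-A and NC-B, which differ in group and in pair. The NC libraries gave 26.9 and the anti-miR-124 libraries 10.0.

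The 8 genes and all gene lists were chosen with earlier results of these data known. From each pathway list, at most 3 genes were named, those with the smallest unadjusted p and the same sign in both pairs, and from marker lists at most 2 with the highest mean TPM. Defining markers and an overlapping gene are named beside them, and the text says where another gene outside this rule is named. Alternatives used DESeq2 1.42.0, limma-voom (limma 3.58.1), other normalizations, filters and designs, and leaving out each library. Seed matches of miR-124-3p and protein sequences were not analysed here. Promoters were read with Python 3.11.15. Values of some genes that the naming rule selects are not reported here.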

Additional observations from a re-analysis of the deposited data

How the results depend on the processing

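The count of members past the adjusted threshold was 0 in the main analysis and in all 14 alternatives that gave a test. Where no gene at all passed, as in limma-voom or with the replicate block, this 0 was fixed in advance. Casp1, Casp4 and Ripk3 were not in the fits that kept the filter of the main test. Of the values recomputed under alternatives, 164 kept their direction and side of the threshold or their size, 7 moved and 2 changed sign. When NC-B was left out, the log2 fold change of Bax was -0.059, with a range of -0.059 to 0.21 over the libraries left out, and when anti-B was left out that of Gsdmd was -0.89, with a range of -0.89 to 1.11. Over the same 4 fits it ranged from -0.31 to -0.12 for Casp8, from 0.41 to 1.02 for Mlkl and from 0.18 to 0.48 for Ripk1. By log2 TPM ratios, 4 of the 8 genes were higher in both pairs in place of 2, with Bax and Casp4 added, the latter at 1 count in NC-A and in anti-A. TPM in NC-A also holds the 67284 TPM of the lens genes, whose part in these ratios was not tested. With the lens genes left out, or without the filter, 3 of the 8 genes were higher in both pairs, which was counted among the values that kept their size. The number of genes with an adjusted p under 0.05 was 0 in the main test, 379 without the filter on low counts, 33 in DESeq2's Wald test, and between 0 and 235 with 1 library left out (235 when it was anti-A, 39 for NC-B and 12 for anti-B, the lone library of a group being assumed to vary like the other group). The cause of these differences was not tested. With the shared number as a replicate block, 0 genes passed and 376 had an unadjusted p under 0.05, and Ripk1 had a log2 fold change of 0.33 (adjusted p = 1.00). Around the group means, libraries with the same number correlated at -0.16 over 17766 genes, and the crossed pairing, which was chosen after seeing the data, gave 160 genes. Adjusted p-values over all alternatives were 0.380 to 1.00 for Ripk1, 0.387 to 1.00 for Gsdmd, 0.653 to 1.00 for Mlkl, 0.922 to 1.00 for Casp8 and 0.955 to 1.00 for Bax. Depth limits Casp1, Casp4, Ripk3 and Mlkl, which had 26 counts or fewer in every library.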

Other observations

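Among the cell death genes that the naming rule left out, Bcl2a1b, an anti-apoptotic member of the BCL-2 family known from blood cells, showed a pattern like that of Casp1, and it was chosen after its values were seen. It had 5 counts in NC-A, 6 in anti-A, 4 in NC-B and 52 in anti-B, and its log2 fold change without the filter was 2.55 (SE 0.54, adjusted p = 0.00027 in edgeR's test). The counts were high in anti-B alone, and the fit without the filter gave small p-values to such genes. This p-value is therefore no evidence of a difference between the groups. Bcl2a1b has near-identical copies in the mouse genome among which counting can split reads, so its value is uncertain, and the copy Bcl2a1d had at most 3 counts in any library. Fas, the death receptor upstream of Casp8, had 2 counts in NC-A, 1 in anti-A, 0 in NC-B and 9 in anti-B. Ninj1, which breaks the plasma membrane after pyroptosis, had 137 counts in NC-A, 101 in anti-A, 103 in NC-B and 187 in anti-B, with ratios of 0.695 in pair A (0.532 to 0.906) and 1.74 in pair B (1.36 to 2.23). Naip2, an inflammasome sensor of bacterial secretion systems, divided in the same way, with ratios of 0.539 in pair A (0.242 to 1.15) and 2.44 in pair B (1.43 to 4.33). These intervals cover counting error only, and the difference between the pairs was not tested across libraries. Fas, Ninj1 and Naip2 were also chosen after their values were seen.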
